A study of Mus musculus with 36 samples.

Results

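The NK cell lectin-like receptors are 31 genes of the 37417 in the count table. They are all genes whose symbol starts with Klra to Klrk followed by a number, plus Ncr1. The set holds 14 Klra genes, 6 Klrb genes, 3 Klrc genes, Klrd1, Klre1, Klrg1, Klrg2, Klri1, Klri2, Klrk1 and Ncr1, and 4 of them are named as pseudogenes. Apart from Ncr1 on chromosome 7, all 30 lie on chromosome 6 of GRCm38, and the 13 Klra genes other than Klra2 fill chr6:129831154-130386874. Ncr1 encodes NKp46, an immunoglobulin-like receptor of NK cells, and is not a lectin.

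Tumor RNA was sequenced from 36 wild-type mice aged 12 weeks, each carrying 1 subcutaneous tumor. By the labels, the mice were C57BL/6J for MC38 (colon carcinoma) and PancO2 (pancreatic carcinoma) and BALB/c for CT26 (colon carcinoma). Within each model, 4 mice received control IgG from rat serum, 4 received anti-CTLA4 and 4 received anti-PD-1, at 10 mg/kg into the peritoneum. The tumors are transplanted lines, and the RNA is that of whole tumor tissue with its host cells.

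Libraries were also divided into 3 classes by 2 genes outside the family. In 12 libraries H2-Ea-ps, which is known to be transcribed in BALB/c mice and silent in C57BL/6 mice, was above 10 CPM (counts of the gene per 1000000 counts of all genes in the library). In 12 others Cp, the gene of ceruloplasmin, was above 1000 CPM, and the remaining 12 had neither. No library was close to the first limit, since the lowest H2-Ea-ps value inside the class was 32.8 CPM and the highest outside it was 0.0845 CPM. The nearest values to the second limit were 1389 CPM of Cp inside and 611 CPM outside. The labels went against this division: of MC38, CT26 and PancO2 the H2-Ea-ps class held 4, 4 and 4 libraries, the Cp class 4, 3 and 5, and the third class 4, 5 and 3. Thus 8 of the 12 libraries with H2-Ea-ps carried the label C57BL/6J. The strain and line of each tumor cannot be told from the labels alone, so classes are called by the genes that define them.

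Total counts per library ran from 7883106 to 41751023 and the members together took between 826 and 6552 counts. The shallowest library was labelled PancO2 anti-PD-1 71 and belonged to the H2-Ea-ps class. It stood apart in having 69.6 CPM of Siglech, a marker of plasmacytoid dendritic cells, where no other library was above 5.11 CPM. Values that rest on it are given with and without it.

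Klra genes encode the Ly49 receptors, which bind major histocompatibility complex (MHC) class I on other cells. Most are inhibitory, while Klra4 (Ly49D) and Klra8 (Ly49H) are activating and signal through the adapter Tyrobp (DAP12). Laboratory strains differ in how many Klra genes they carry, and BALB/c mice are known to lack both of these activating genes. The Klrb genes encode NKR-P1 receptors for Clec2 proteins, Klrd1 (CD94) pairs with the NKG2 proteins of the Klrc genes, and Klrk1 (NKG2D) binds stress-induced ligands. Several of these receptors are also known on activated CD8 T cells, and Klra2 (Ly49B) and Klra17 (Ly49Q) on myeloid cells.

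Because the Klra genes are close copies of each other, the same coding exon is shown for 6 of them to let the activating and inhibitory forms be compared. It is 90 bases long in all 11 Klra genes that have it, and pairs of genes differ at 5 to 24 of its positions. Sequences are from the GENCODE transcripts of GRCm38, minus strand, written 5′ to 3′. Capitals mark the 4 positions (1, 52, 58 and 80, counted from the 5′ end of the exon) at which Klra4 and Klra8 share a base that none of the other 9 genes has.
Klra4, chr6:130063106-130063195: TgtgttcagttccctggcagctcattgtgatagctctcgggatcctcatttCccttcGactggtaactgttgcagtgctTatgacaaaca
Klra8, chr6:130126223-130126312: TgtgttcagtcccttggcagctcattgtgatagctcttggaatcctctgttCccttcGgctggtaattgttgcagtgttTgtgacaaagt
Klra6, chr6:130023638-130023727: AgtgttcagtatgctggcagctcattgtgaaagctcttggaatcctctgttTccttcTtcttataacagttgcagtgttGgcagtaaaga
Klra7, chr6:130229935-130230024: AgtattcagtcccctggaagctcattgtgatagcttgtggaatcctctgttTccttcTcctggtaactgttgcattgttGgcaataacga
Klra2, chr6:131243896-131243985: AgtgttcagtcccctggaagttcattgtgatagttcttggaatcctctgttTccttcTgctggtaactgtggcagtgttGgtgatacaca
Klra17, chr6:129873284-129873373: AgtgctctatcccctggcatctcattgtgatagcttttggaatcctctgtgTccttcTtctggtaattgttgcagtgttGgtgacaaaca
In this exon Klra4 differs from Klra8 at 12 positions, from Klra2 at 18, from Klra17 at 19, from Klra7 at 22 and from Klra6 at 23. Over whole transcripts, 95.3% of the 50-base stretches of Klra4 and 97.4% of those of Klra6 occur in no other gene. For Klra8 the share was 66.9%, since 20.4% of its stretches are also in Klra14-ps. Reads of such stretches have no unique position, so Klra8 (66.9%), Klra9 (68.5%), Klra10 (60.2%), Klrc1 (61.4%) and Klrc3 (63.7%) are the members whose counts are most uncertain. Klra2, Klra17, Klrd1, Klrk1 and Ncr1 share no stretch of that length with another gene.

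Of the 31 members, 20 had a median of at least 10 counts in at least 1 class. The other 11 were Klra1, Klra3, Klra5, Klra8, Klra9, Klra10, Klra11-ps, Klra14-ps, Klrb1, Klrb1-ps1 and Klrc3. At least 10 counts in at least 4 libraries were reached by 24 members, among 17865 genes of the whole table. Since classes were cut from expression, values between classes are a description with no test. In bulk tumor RNA, fewer cells of a type and less RNA per cell cannot be told apart.

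The widest contrast was that of Klra4 (ENSMUSG00000079852, chr6:130043731-130067271). It was at 0 to 3 counts in every library of the H2-Ea-ps class, with 15 counts over all 12 libraries. In the Cp class it ran from 28.6 to 63.8 CPM with a median of 43.0 CPM, and in the third class from 57.9 to 89.0 CPM with a median of 71.3 CPM. No library of the H2-Ea-ps class came near either range, while the ranges of the Cp and the third class overlapped. Summed over libraries, Klra4 was 766-fold higher in the Cp class than in the H2-Ea-ps class (95% exact interval 464 to 1370, counting error only) and 1230-fold higher in the third class (745 to 2197). Klra4 made up 32.4% of all member counts in the median library of the Cp class and 58.2% in that of the third class.

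Klra6 (Ly49F, an inhibitory receptor, ENSMUSG00000061769, chr6:130013033-130026954) had the same division at a far lower level. It had 0 counts in 8 libraries of the H2-Ea-ps class and at most 3 in the others, 7 in all. Its median was 1.14 CPM in the Cp class, with a range from 0.767 to 2.30 CPM, and 1.13 CPM in the third class, with a range from 0.598 to 1.52 CPM. The summed ratio to the H2-Ea-ps class was 48.5 (23.3 to 121) for the Cp class and 41.2 (19.8 to 103) for the third class. Klra4 and Klra6 were the only members that met the rule for absence from a class, namely at most 3 counts in each library of that class against a median of at least 10 counts in another.

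Klra8 was too low elsewhere for that rule, and had 0 counts in all 12 libraries of the H2-Ea-ps class. A count of 0 allows up to 0.0904 to 0.381 CPM in a single library of that class and 0.0116 CPM over the 12 together. In the Cp class Klra8 had 3 to 10 counts per library with a median of 0.213 CPM, and in the third class 2 to 23 counts with a median of 0.267 CPM. Against the limit over the class it was at least 18.7-fold higher in the Cp class and at least 25.2-fold higher in the third. The pseudogenes Klra11-ps and Klra14-ps were likewise at 0 in the H2-Ea-ps class, with sums of 2 and 11 counts in the Cp class and 1 and 29 in the third. No member was at 0 in every library of the Cp class or of the third class. Whether reads of a BALB/c allele map to the reference, which is C57BL/6J sequence, was not tested.

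**Figure D1:**
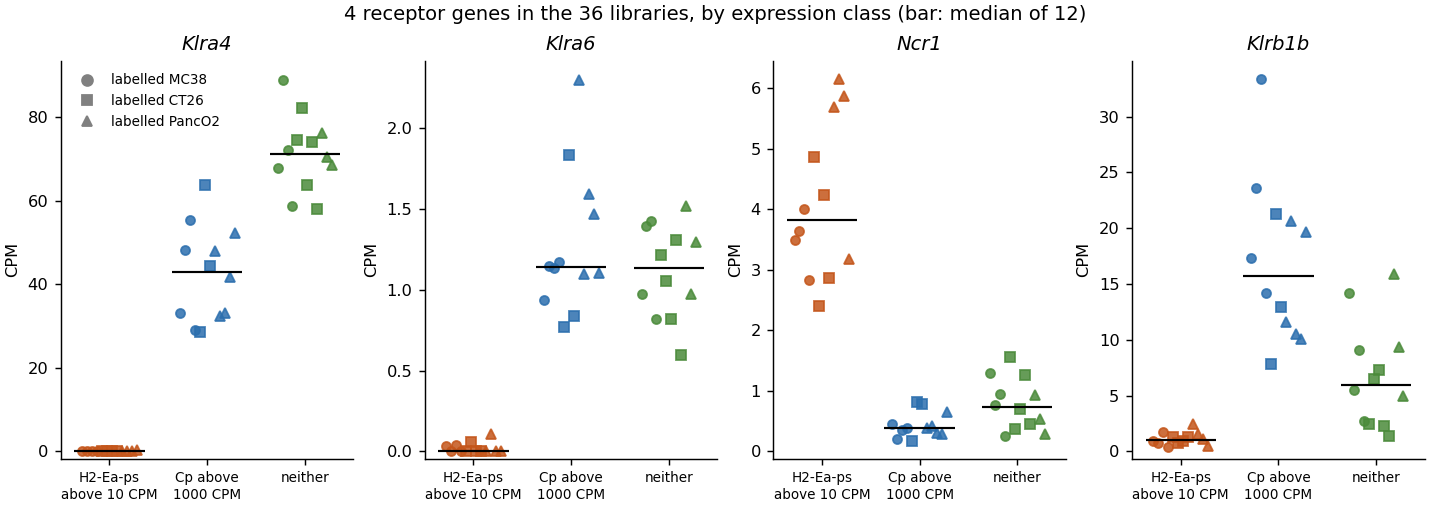
CPM (linear axes) of Klra4, Klra6, Ncr1 and Klrb1b in each of the 36 libraries, by expression class, with symbols for the labelled model and a bar at the median of 12 libraries. Klra4 and Klra6 lie at or near 0 in the H2-Ea-ps class, whatever the labelled model, while every Ncr1 value of that class is above those of the other two.

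The remaining Klra genes were present in all 3 classes. Klra2 was the most abundant of them, with a median of 32.5 CPM (20.4 to 37.9) in the H2-Ea-ps class, 43.0 CPM (16.8 to 56.5) in the Cp class and 23.5 CPM (8.85 to 49.8) in the third class, and all 3 ranges overlapped. Klra17 had medians of 0.172, 0.878 and 0.429 CPM in the same order, again with overlapping ranges. Klra7 (Ly49G) hardly differed between the medians, at 0.766, 0.736 and 0.695 CPM, although the library PancO2 anti-PD-1 71 reached 6.85 CPM and the other 11 of its class at most 1.55 CPM. That library was also the highest of its class for Klra1 (Ly49A), at 2.66 CPM against at most 0.485 CPM in the rest. Klra13-ps had medians of 0.252, 0.288 and 0.389 CPM. The sparse genes Klra3, Klra5, Klra9 and Klra10 stayed at or below 0.646 CPM in every library.

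Ncr1 (ENSMUSG00000062524, chr7:4337724-4345164) was highest in the class in which Klra4 was nearly absent. It ran from 2.41 to 6.15 CPM in the H2-Ea-ps class with a median of 3.82 CPM, from 0.164 to 0.807 CPM in the Cp class with a median of 0.391 CPM, and from 0.261 to 1.55 CPM in the third class with a median of 0.740 CPM. Every library of the H2-Ea-ps class was above all 24 others, and the ratio of medians was 9.75 to the Cp class and 5.16 to the third. Other genes of NK and cytotoxic cells were given by the NK marker list, whose summed level was 39.3 to 131 CPM in the H2-Ea-ps class, 23.7 to 72.2 CPM in the Cp class and 24.02 to 77.6 CPM in the third. Of its 9 measured genes, Ncr1 and Gzma, which encodes granzyme A, had every library of the H2-Ea-ps class above every library of each other class (22.2%, beside 10.7% of all genes against the Cp class and 8.32% against the third), and no marker of the list was at 0 throughout a class. Gzma had medians of 12.8, 1.41 and 1.58 CPM. Prf1 and Txk also had their highest medians in the H2-Ea-ps class, with ranges that overlapped. The medians were 28.99, 3.44 and 5.46 CPM for Prf1 and 2.73, 1.12 and 1.11 CPM for Txk. Il2rb had medians of 24.99, 24.5 and 17.1 CPM. Other genes of the list had other orders. Eomes, a transcription factor of NK and T cells, had medians of 4.28, 1.92 and 9.69 CPM. It was the only marker of the list with the third class wholly above the Cp class (11.1%, beside 13.6% of all genes). The chemokine gene Xcl1 had 0.772, 1.72 and 0.496 CPM, and Cd160 had 1.53, 1.59 and 1.63 CPM. Tbx21, which encodes T-bet, had medians of 1.486, 2.34 and 1.4999 CPM.

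On the scale of CPM per kilobase of exon, which lets genes be compared, the median Klra4 level was 34.5 in the Cp class and 57.3 in the third. The corresponding medians were 22.7 and 12.4 for Klra2, 7.12 and 3.24 for Klrd1, and 0.254 and 0.481 for Ncr1. Csf1r, the macrophage receptor for colony-stimulating factor 1, had medians of 45.5 and 55.1. Within single libraries the ratio of Klra4 to Ncr1 on this scale, a measure added after the level of Klra4 had been seen, ran from 70.2 to 299 in the Cp class and from 59.5 to 295 in the third class, whereas that of Klra6 ran from 1.49 to 8.08 and from 1.03 to 6.21. In the third class Klra4 varied 1.54-fold between the lowest and the highest library, while Cd8a, the CD8 alpha chain of cytotoxic T cells, varied 42.6-fold. In the Cp class these spreads were 2.23-fold and 4.86-fold. The wide Cd8a spread of the third class rests on CT26 IgG 24 (0.851 CPM) and CT26 anti-PD-1 40 (1.84 CPM), and the next lowest value was 7.93 CPM. Not all genes of host cells varied as much as Cd8a, since Csf1r ran from 252 to 451 CPM in the third class.

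Among the NKR-P1 receptors, Klrb1b (ENSMUSG00000079298, chr6:128813706-128826331), an inhibitory receptor for Clec2d, differed most. It ran from 0.373 to 2.42 CPM in the H2-Ea-ps class, from 7.78 to 33.3 CPM in the Cp class and from 1.34 to 15.9 CPM in the third, with medians of 1.004, 15.7 and 5.97 CPM. All libraries of the Cp class exceeded all of the H2-Ea-ps class, and the third class overlapped with both. In GENCODE, 25.5% of the 50-base stretches of Klrb1b are shared with the gene model Gm44511. Klrb1a had medians of 1.41, 0.351 and 0.200 CPM and Klrb1f of 0.966, 0.301 and 0.234 CPM, so these 2 were highest in the H2-Ea-ps class, with ranges that overlapped. Klrb1c, which encodes the NK1.1 antigen of C57BL/6 mice, had medians of 0.948, 0.822 and 1.39 CPM. Klrb1 and Klrb1-ps1 had at most 3 counts in any library, except 13 counts of Klrb1 in PancO2 anti-PD-1 71.

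Among the receptors that NK and CD8 T cells share, the medians of Klrk1, Klrd1, Klrc1 and Klrc2 differed less than those of Klrb1b. Klrk1 had a median of 16.2 CPM (7.59 to 19.4) in the H2-Ea-ps class, 14.03 CPM (5.21 to 24.7) in the Cp class and 5.27 CPM (2.22 to 12.5) in the third class. Klrd1 had medians of 7.19, 9.12 and 4.15 CPM, and Klrc1 (NKG2A), its inhibitory partner, of 3.49, 3.10 and 2.72 CPM. Klrc2 (NKG2C), the activating partner, had medians of 1.81, 0.943 and 0.805 CPM. The ranges of these 4 genes overlapped between all classes. Klrc3 (NKG2E) was sparse, with a median of 0.485 CPM in the H2-Ea-ps class and of 0.0488 and 0.0362 CPM in the others. All 11 libraries of the class other than PancO2 anti-PD-1 71, which had 0 counts, were at 0.0904 CPM or more and thus above the Cp class, whose highest value was 0.0845 CPM. These values rest on 3 counts in CT26 anti-CTLA4 34 and 2 counts in PancO2 anti-CTLA4 57. The third class reached 0.163 CPM and overlapped with the H2-Ea-ps class.

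The last group holds receptors of other kinds. Klrg1, an inhibitory receptor for cadherins found on differentiated T and NK cells, had medians of 1.79, 0.473 and 0.483 CPM. Klre1 and its partners Klri1 and Klri2 had medians of 1.45, 1.24 and 1.07 CPM, of 1.21, 0.524 and 0.212 CPM, and of 3.09, 1.99 and 1.36 CPM. Klrg2, on another part of chromosome 6, had medians of 2.32, 1.56 and 0.981 CPM. Each of these 5 had its highest median in the H2-Ea-ps class and its ranges overlapped. In PancO2 anti-PD-1 71, Klri2 reached 7.74 CPM and Klrb1f 3.93 CPM, and the other libraries of the class were at or below 4.41 and 1.21 CPM.

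**Figure D2:**
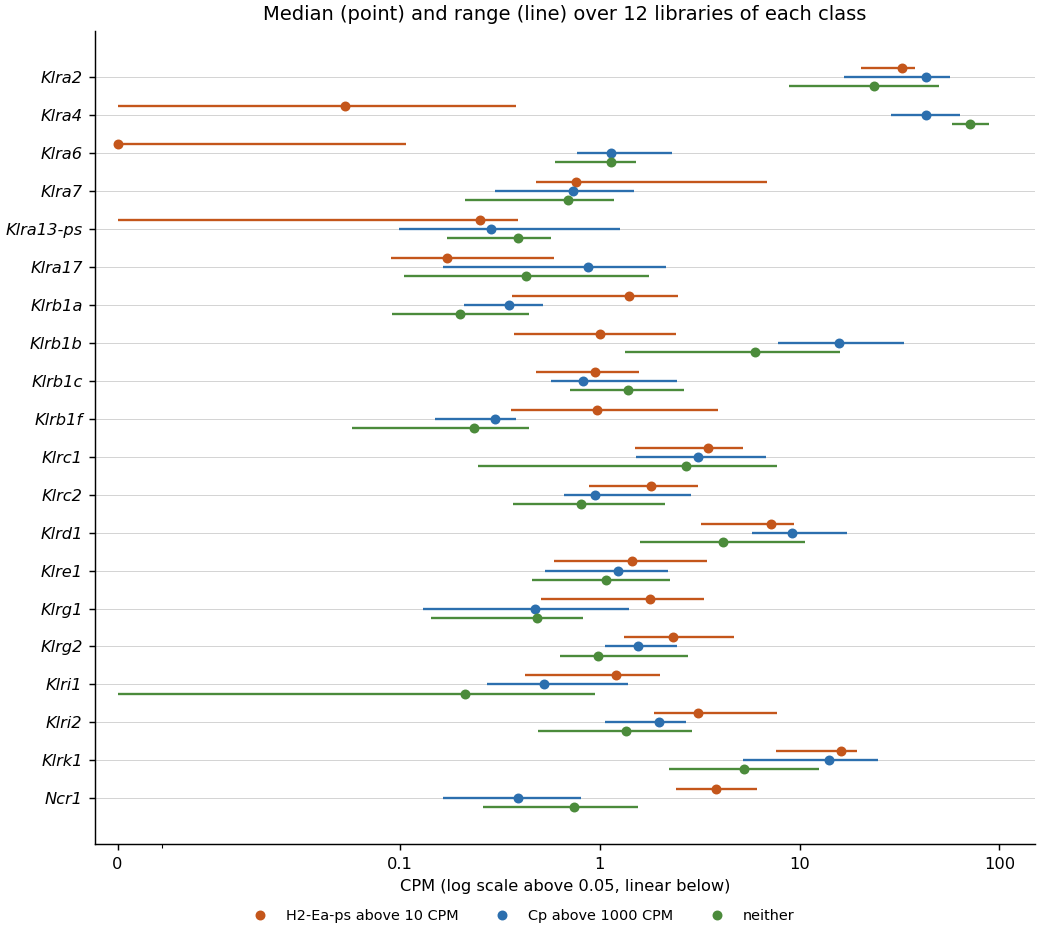
CPM (log axis above 0.05, linear below) of the 20 members with a median of at least 10 counts in a class, with a point at the median and a line over the range of the 12 libraries of each class. Klra4 and Klra6 are the only genes whose H2-Ea-ps range lies wholly below both other ranges, and Ncr1 the only one whose range lies wholly above.

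Counting the 24 measured members, few kept the classes apart. The H2-Ea-ps class lay wholly above the Cp class for 1 member (Ncr1), where 10.7% of all measured genes did so, and wholly above the third class for 1 (Ncr1), against 8.32% of all genes. The Cp class lay wholly above the H2-Ea-ps class for 3 members (Klra4, Klra6 and Klrb1b), which is 12.5% of them against 16.6% of all genes. The third class lay wholly above the H2-Ea-ps class for 2 (Klra4 and Klra6), or 8.33% against 14.9%. No member separated the Cp class from the third in either direction, where 13.1% of all genes were wholly higher in the Cp class and 13.6% in the third. Each of these shares was below that of all genes.

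Which members varied with NK cell or CD8 T cell content was examined within each class of 12 libraries, on log2(CPM + 0.5). The reference genes were Ncr1 for NK cells, Cd8a for CD8 T cells, Csf1r for macrophages and Siglech for plasmacytoid dendritic cells. Pearson's r and Spearman's rho were computed for 194 relations, with 100000 two-sided permutations and Benjamini-Hochberg adjustment over all of them. For r, 12 relations with Cd8a passed an adjusted p of 0.05, all positive, 1 with Siglech and none with Ncr1 or Csf1r. At an unadjusted p of 0.05, 7 of the 47 relations with Ncr1, 21 of the 49 with Cd8a, 2 of the 49 with Csf1r and 5 of the 49 with Siglech passed. The share of all genes at that threshold was not computed.

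Klrd1 and Klrc1, the subunits of the inhibitory CD94/NKG2A receptor, followed Cd8a in all 3 classes. For Klrd1, r was 0.88 in the H2-Ea-ps class, 0.93 in the Cp class and 0.79 in the third, with adjusted permutation p of 0.00994, 0.00194 and 0.0200 and rho of 0.80, 0.87 and 0.89 (adjusted p of 0.0394, 0.0171 and 0.0126). For Klrc1, r was 0.87, 0.90 and 0.96, with adjusted permutation p of 0.00994, 0.00388 and 0.00194 and rho of 0.83, 0.84 and 0.96 (adjusted p of 0.0255, 0.0239 and 0.00388). Without the 2 libraries with the most extreme Cd8a, r was 0.73, 0.82 and 0.94 for Klrd1 and 0.75, 0.83 and 0.98 for Klrc1. In the H2-Ea-ps class neither relation then passed, with adjusted permutation p of 0.139 and 0.103 over the 10 libraries that remained.

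Klrc2 followed Cd8a in the H2-Ea-ps class (r = 0.87, adjusted permutation p = 0.00994) and in the third class (r = 0.81, adjusted permutation p = 0.0200). Its rho was 0.73 and 0.90 (adjusted p of 0.0886 and 0.0126), and without the 2 extreme libraries r was 0.73 and 0.88, the first of which no longer passed (adjusted permutation p = 0.156). In the Cp class r was 0.66 and did not pass (adjusted permutation p = 0.180). Klrk1 passed in the third class (r = 0.76, adjusted permutation p = 0.0356, rho = 0.87 with adjusted p = 0.0171, and r = 0.93 without the 2 extreme libraries). In the other classes its r was 0.64 and 0.75, with adjusted permutation p of 0.180 and 0.0557, and by rho it passed in the Cp class (0.78, adjusted p = 0.0455). Klre1 passed in the Cp class (r = 0.89, adjusted permutation p = 0.00504, rho = 0.83 with adjusted p = 0.0255), where r was 0.76 and no longer passed without the extreme libraries (adjusted permutation p = 0.103).

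The myeloid Ly49 genes also followed Cd8a in the third class. For Klra2, r was 0.93 (adjusted permutation p = 0.00194), rho 0.90 (adjusted p = 0.0126) and r without the 2 extreme libraries 0.87. For Klra17, r was 0.78 (adjusted permutation p = 0.0439), rho 0.85 (adjusted p = 0.0180) and r without those libraries 0.87. In the Cp class r was 0.66 for Klra2 and 0.50 for Klra17 (adjusted permutation p of 0.176 and 0.428), and by rho Klra2 passed there (0.86, adjusted p = 0.0192) while Klra17 did not (0.73, adjusted p = 0.0872). In the H2-Ea-ps class r of Klra2 with Cd8a was 0.07. Klrb1b passed in the third class by rho (0.80, adjusted p = 0.0401) and not by r (0.73, adjusted permutation p = 0.0579). With Csf1r no member passed in any class.

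No relation of Klra4 or Klra6 with Cd8a or Ncr1 passed. With Cd8a, r of Klra4 was 0.09 in the Cp class and 0.09 in the third, or 0.28 and 0.55 without the 2 extreme libraries, and with Ncr1 it was 0.48 and 0.33 (adjusted permutation p of 0.467 and 0.717). For Klra6 the corresponding values were -0.18 and 0.01 with Cd8a and 0.10 and 0.42 with Ncr1. Ncr1 itself had 3 to 27 counts per library in the Cp class and 8 to 51 in the third. In the Cp class Klri2 passed with Ncr1 by rho (0.78, adjusted p = 0.0491) and not by r (0.60, adjusted permutation p = 0.229). In the H2-Ea-ps class, where it had 25 to 171 counts, the highest r over the 12 libraries was that of Klrc1 (r = 0.73, adjusted permutation p = 0.0579, rho = 0.79 with adjusted p = 0.0445). Klrd1, Klrk1 and Klrb1b had r of 0.68, 0.66 and 0.65 there, with adjusted permutation p of 0.119, 0.175 and 0.180. Without PancO2 anti-PD-1 71 the order changed, with r of 0.78 for Klra7 (0.10 with that library), 0.78 for Klrk1, 0.77 for Klrd1 and 0.73 for Klrc1, and no relation with Ncr1 passed. Between Ncr1 and Cd8a, r was 0.43, 0.07 and -0.27 in the 3 classes and rho 0.40, 0.20 and 0.14, with permutation p of 0.729, 0.913 and 0.882 for r when adjusted over the 9 relations among reference genes.

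**Figure D3:**
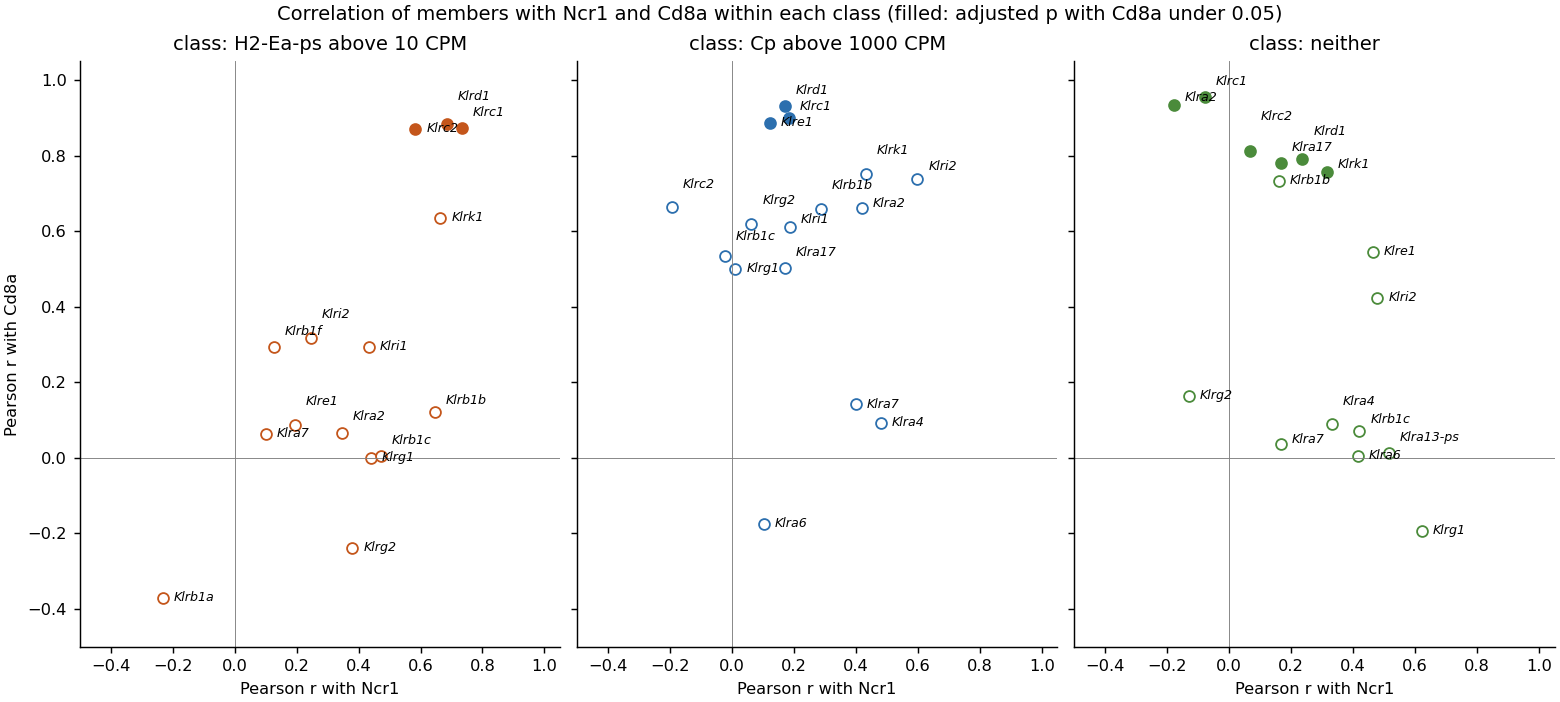
Pearson r of each member with Cd8a (vertical) against its r with Ncr1 (horizontal) on log2(CPM + 0.5) over the 12 libraries of each class, with filled points where the adjusted permutation p with Cd8a is under 0.05. Klrc1 and Klrd1 have filled points in all 3 panels, at r of 0.79 to 0.96 with Cd8a, while Klra4 and Klra6 lie between -0.18 and 0.09 on that axis in the Cp and the third class.

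**Figure D4:**
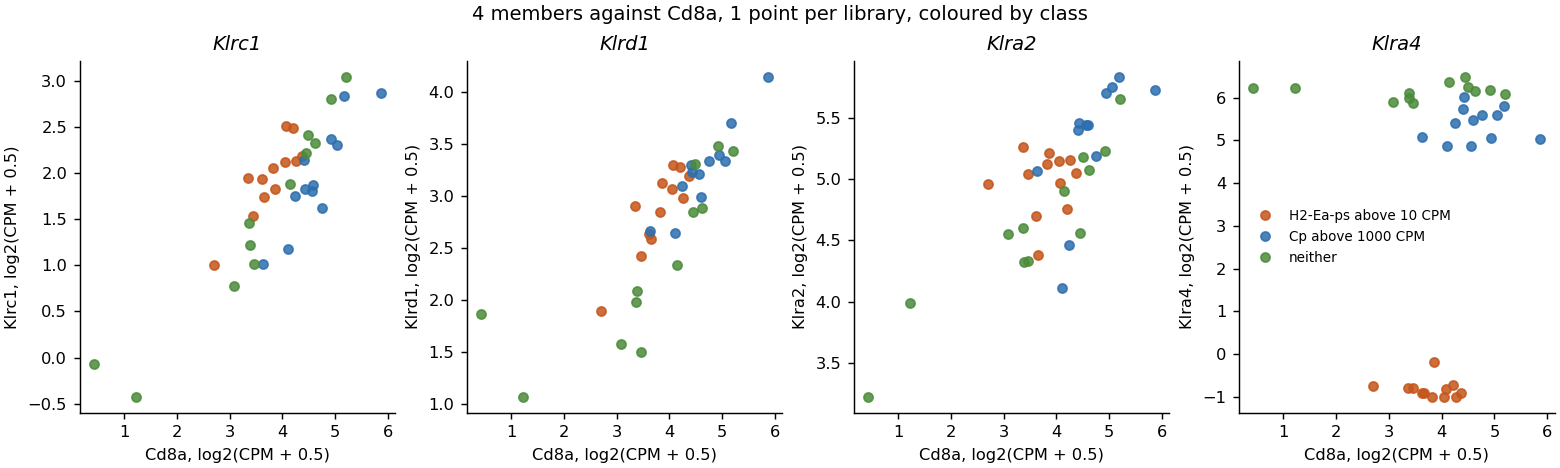
Klrc1, Klrd1, Klra2 and Klra4 against Cd8a on log2(CPM + 0.5), 1 point per library, coloured by class. Klrc1 and Klrd1 rise with Cd8a in each class, whereas Klra4 has r of 0.09 with Cd8a in the Cp and the third class and lies at the bottom in the H2-Ea-ps class.

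The share of members close to a reference was also set beside that of all genes, a measure added after the correlations had been seen. An r of at least 0.7 with Cd8a was reached by 3 of 16 members in the H2-Ea-ps class, where 0.545% of all genes with a median of at least 10 counts in that class reached it. The figures were 5 of 16 against 1.17% in the Cp class and 7 of 17 against 3.26% in the third. With Ncr1 the same limit was reached by 1 of 15 members in the H2-Ea-ps class (0.981% of genes), by none of 16 in the Cp class (0.259% of genes) and by none of 16 in the third (0.265% of genes). The median r of members with Cd8a was 0.21, 0.64 and 0.42, and that of all genes was -0.04, -0.02 and -0.03.

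With Ptprc, the pan-leukocyte gene CD45, a reference added after the data had been seen, 11 of 49 relations passed, all positive, with adjustment over the 98 relations added in this way. The share of all genes that pass with Ptprc was not computed, so this count cannot be read as particular to the members. Klra2 passed in all 3 classes, with r of 0.83, 0.90 and 0.89 and adjusted permutation p of 0.0113, 0.000980 and 0.00457. Its rho was 0.79, 0.90 and 0.89 (adjusted p of 0.0435, 0.0121 and 0.0121), and without the 2 extreme libraries r was 0.57, 0.86 and 0.78. Only some of the relations that passed with Cd8a also passed with Ptprc. Besides Klra2 in the third class these were Klrc1 (r = 0.88) and Klrd1 (r = 0.83) in the Cp class. In the third class Klrc2 (r = 0.83) and Klra17 (r = 0.81) did so too. Their adjusted permutation p, in the order Klrc1, Klrd1, Klrc2 and Klra17, was 0.00457, 0.0113, 0.0113 and 0.0163. Klrk1 passed in the H2-Ea-ps and the Cp class (r of 0.73 and 0.84), Klrb1b in the Cp class (r = 0.82) and Klre1 in the third (r = 0.76), with adjusted permutation p of 0.0478, 0.0118, 0.0152 and 0.0336. By rho, Klra17, Klre1 and, in the H2-Ea-ps class, Klrk1 did not pass (adjusted p of 0.0569, 0.0822 and 0.194), and without the 2 extreme libraries r of these 8 relations ran from 0.59 to 0.81. Other relations that passed with Cd8a did not pass with Ptprc. In the H2-Ea-ps class r with Ptprc was 0.29 for Klrc1, 0.14 for Klrc2 and 0.32 for Klrd1 (adjusted permutation p of 0.593, 0.814 and 0.572). In the third class Klrc1, Klrd1 and Klrk1 had r of 0.73, 0.69 and 0.72 (adjusted permutation p of 0.0513, 0.0739 and 0.0513). Klre1 in the Cp class had 0.72 (adjusted permutation p = 0.0565). Where r was high with both genes, variation with CD8 T cells and with leukocytes at large cannot be told apart here. Klra4 had r of 0.15 and -0.07 with Ptprc in the Cp and the third class. With Mki67, a gene of dividing cells, r of Klra4 was 0.22 and -0.60 (adjusted permutation p of 0.692 and 0.157), and no member passed.

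The single relation with Siglech was that of Klri2 in the H2-Ea-ps class, with r = 0.82 (adjusted permutation p = 0.0344) and rho of 0.64 (adjusted p = 0.187). Without PancO2 anti-PD-1 71 it had r = 0.62 (adjusted permutation p = 0.235), and the call was lost. In the same class Klra7 had r = 0.89 with Siglech over 12 libraries and 0.02 over the 11 others, with an adjusted permutation p of 0.229 for the former. That library held 86.5% of its listed reads in lines that name no gene, against 44.8% to 63.4% elsewhere, and its Cd79a, a B cell gene, was at 14.3 CPM. Their part in its receptor values was not tested.

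The labelled comparisons asked whether receptor genes differ between tumor models or after checkpoint blockade. Genes were tested on the counts with edgeR's quasi-likelihood test and Benjamini-Hochberg adjustment over 16285 to 16510 genes. Among the 12 IgG libraries, 0 of 22 members were called between any 2 labelled models, where 0% of all genes were called. Each labelled group mixed classes, so this count of 0 does not show that the receptors are alike in the models. At an unadjusted p of 0.05, 83 of all 16510 genes passed between CT26 and MC38, 93 between PancO2 and MC38 and 98 between PancO2 and CT26. Among the 22 members, 2 passed between CT26 and MC38 and 0 in each comparison with PancO2. These 2 were Klra17, which had a log2 fold change of -2.004 ± 0.77 (SE), and Klra2, which had -0.88 ± 0.36, both with an adjusted p of 0.9998 by edgeR. The median log2 fold change over members was -0.11 for PancO2 minus MC38, 0.45 for PancO2 minus CT26 and -0.53 for CT26 minus MC38, where that over all genes lay between -0.01 and 0. DESeq2 and limma-voom also called 0 members, with 2 and 5 at an unadjusted p of 0.05 over the model comparisons together. Counts over all genes by these tools are not given here, so their member counts have no share to be set beside.

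Treatment gave the same count. Against IgG of the same labelled model, 0 of 20 to 22 members were called for anti-PD-1 or anti-CTLA4 in MC38, CT26 or PancO2, and 0% of all genes were. Of all genes, 25 of 16323 had an unadjusted p under 0.05 by edgeR for anti-CTLA4 in MC38 and 912 of 16410 for anti-PD-1 in PancO2. These were the fewest and the most among the 6 comparisons. Across these 6 comparisons 2 members had an unadjusted p under 0.05 by edgeR, 3 by DESeq2 and 1 by limma-voom. They were Klri1 for anti-CTLA4 in MC38, with a log2 fold change of -1.53 ± 0.65 (SE), and Klra13-ps for anti-PD-1 in PancO2, with -1.74 ± 0.66, by edgeR. With all 36 libraries in 1 fit and a term for class, 0 of 20 members were called for either antibody (0% of all genes). An unadjusted p under 0.05 was reached by 741 of 16323 genes for anti-PD-1 and by 331 for anti-CTLA4. Among the members 1 reached it. This was Klrc2 for anti-PD-1, with a log2 fold change of -0.70 ± 0.26 (SE) and an adjusted p of 0.928. DESeq2 and limma-voom called 0 members in this fit, with 3 and 2 at an unadjusted p of 0.05. For these tools, counts over all genes are not given for any comparison of treatment. No gene of the 8 lists was called in any of the 11 comparisons. Since the model and strain labels went against the expression classes, the treatment labels of the same libraries may be in doubt too, which was not tested, and these counts of 0 do not show that treatment left the receptors unchanged.

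Each labelled group mixed classes, which the values of Klra4 show. In MC38 IgG it ran from 0 to 67.9 CPM (mean 25.2 ± 32.4 SD, n = 4), in CT26 IgG from 0.0355 to 82.3 CPM (46.4 ± 38.9) and in PancO2 IgG from 0.0711 to 76.2 CPM (48.7 ± 34.6). The ranges of the 3 groups overlapped. For Ncr1 the means of the same groups were 2.22 ± 1.59, 1.74 ± 2.17 and 1.89 ± 2.55 CPM.

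The adapters through which the receptors signal were present in all classes. Tyrobp, the partner of Klra4 and Klra8, had a median of 45.1 CPM (38.1 to 57.2) in the H2-Ea-ps class, 80.6 CPM (51.4 to 95.4) in the Cp class and 75.8 CPM (66.0 to 89.2) in the third. It is also abundant in macrophages, whose marker list summed to 609.9 to 1258 CPM, 874 to 1479 CPM and 1288 to 2021 CPM in the same order. Genes of that list did not share this order. C1qa, C1qb and Adgre1 had their highest medians in the Cp class, and Csf1r, Cd68 and Mrc1 in the third. Mrc1 had medians of 264, 55.6 and 310 CPM. Fcer1g, another adapter, had medians of 43.8, 95.2 and 84.9 CPM. Hcst (DAP10), the adapter of Klrk1, had medians of 0.665, 1.43 and 0.854 CPM. Sh2d1b2, a signalling adapter of NK cells, had medians of 1.96, 0.162 and 0.199 CPM, and thus the order of Ncr1, with ranges that overlapped. Of the 12 measured genes of this list, 2 (Fcer1g and Vav1, 16.7% beside 16.6% of all genes) lay wholly higher in the Cp class than in the H2-Ea-ps class, 2 (Tyrobp and Fcer1g, 16.7% beside 14.9%) wholly higher in the third class than in the H2-Ea-ps class, and none wholly higher in the H2-Ea-ps class.

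The ligand list was above the share of all genes in some comparisons and below it in others. Of its 17 measured genes, 5 (29.4%) lay wholly higher in the Cp class than in the H2-Ea-ps class, namely H2-K1, Raet1d, Raet1e, Clec2d and Clec2f, beside 16.6% of all genes. Wholly higher in the Cp class than in the third were also 5 (29.4% beside 13.1%). The H2-Ea-ps class lay wholly above the Cp class for 3 (17.6% beside 10.7%) and above the third for 4 (23.5% beside 8.32%). The third class lay wholly above the H2-Ea-ps class for 0 (14.9% of all genes) and above the Cp class for 0 (13.6% of all genes). Raet1e, a ligand of Klrk1, had a median of 28.7 CPM (25.9 to 32.3) in the Cp class and at most 1.49 CPM in the others, and Raet1d had 10.3 CPM (8.49 to 13.1) against at most 2.65 CPM. H60b, another ligand of Klrk1, was instead highest in the H2-Ea-ps class, with 3.07 CPM (2.08 to 4.03) against at most 0.769 CPM. Ulbp1, also a ligand of Klrk1, had medians of 25.6, 10.97 and 7.55 CPM. The part of ligand levels in the receptor values was not tested.

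Ligands of the other receptors varied too. Clec2d, the ligand of Klrb1b, had medians of 45.1, 91.6 and 61.5 CPM. H2-T23, the Qa-1 molecule that Klrd1 and Klrc1 bind, had medians of 97.9, 145 and 55.3 CPM, and the classical MHC genes H2-K1 and H2-D1 had 656, 2061 and 1020.3 CPM and 1385, 1716 and 857 CPM. Reads of one MHC haplotype may map less well to the reference of another, which was not tested. Cdh2 (N-cadherin), which Klrg1 can bind, had 103 CPM (93.6 to 128) in the H2-Ea-ps class, 2.90 CPM (2.23 to 4.60) in the Cp class and 0.416 CPM (0.202 to 0.880) in the third. Cdh1 (E-cadherin) had 1.80, 8.44 and 5.70 CPM.

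**Figure D5:**
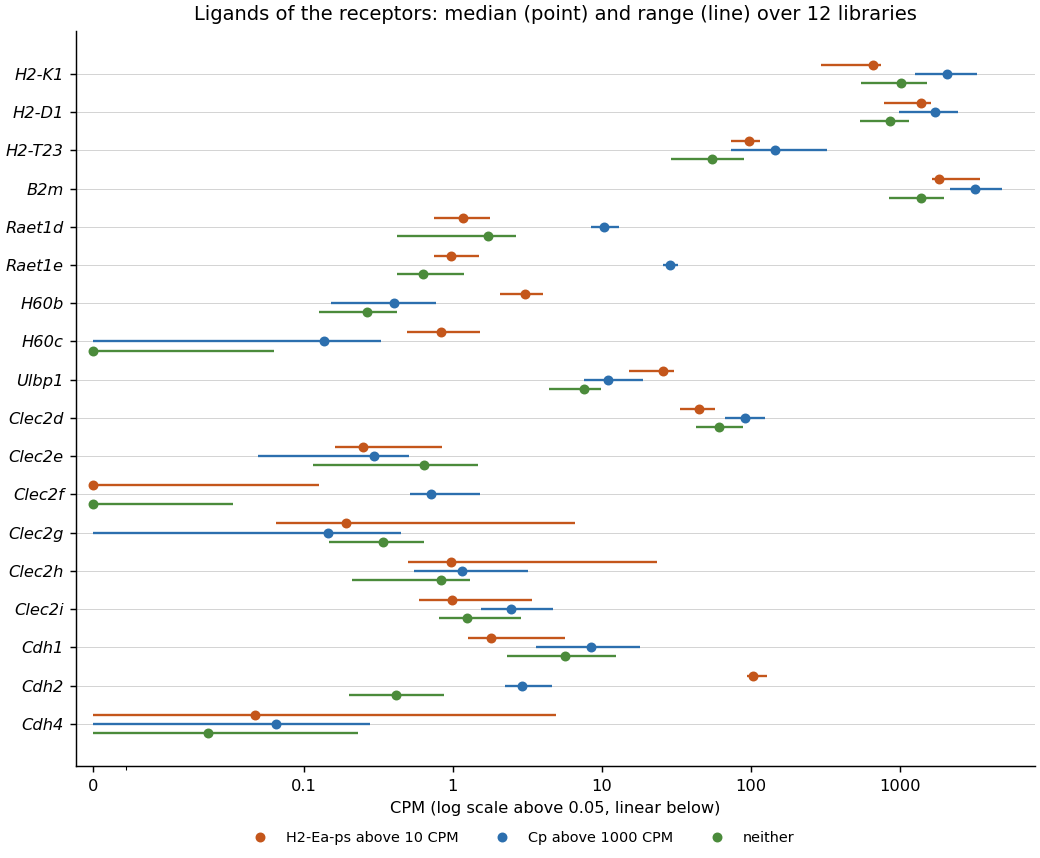
CPM (log axis above 0.05, linear below) of the 18 ligand genes found, with a point at the median and a line over the range of 12 libraries for each class. Raet1e and Raet1d stand apart in the Cp class and Cdh2 and H60b in the H2-Ea-ps class.

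Other genes of the same complex, mostly lectins, were measured for 14 genes. Of these 3 (21.4%) lay wholly higher in the Cp class than in the H2-Ea-ps class, namely Clec9a and, shared with the ligand list, Clec2d and Clec2f, beside 16.6% of all genes. The third class lay wholly above the H2-Ea-ps class for 3 (Clec1a, Clec1b and Clec9a, 21.4% beside 14.9%). It lay wholly above the Cp class for 2 (Clec1a and Gabarapl1, 14.3% beside 13.6%). The Cp class lay wholly above the third for 1 (Clec2f, 7.14% beside 13.1%). The H2-Ea-ps class lay wholly above the Cp class for 0 (10.7% of all genes) and above the third for 0 (8.32%). Clec9a, a receptor of cross-presenting dendritic cells, had medians of 1.59, 10.4 and 9.75 CPM, and Clec1a had 2.48, 1.92 and 46.4 CPM, every library of the third class being above all others. Cd69, an activation marker of lymphocytes, had medians of 2.61, 5.97 and 3.02 CPM. The CD8 T cell list summed to medians of 35.9, 68.8 and 34.8 CPM, with a range of 5.97 to 98.9 CPM in the third class.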

How the data were processed

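One poly-A RNA library was made per tumor, 36 in all, in 9 labelled groups of 4. The deposited values are counts of reads per gene that the authors made by aligning to GRCm38 (mm10) with TopHat and Bowtie and counting with HTSeq, and the submitters' processing notes name FastQC 0.11.5, Bowtie2 and HTSeq 07.2. The labels name a TruSeq V2 kit and the study's methods a stranded KAPA kit. The strand setting and annotation release are not given in the sources used here, so reads of a gene and its antisense partner may not be told apart. HTSeq leaves out reads without a unique position, which lowers the counts of near-identical members. Lines of the table that name no gene held 44.8% to 63.4% of reads in 35 libraries and 86.5% in PancO2 anti-PD-1 71, and were left out of totals and tests.

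Levels are CPM over all 37417 genes. Members and gene lists were chosen with earlier results of these data known. Every member is accounted for, with values by class for those with a median of at least 10 counts in a class. A gene was called measured at 10 counts in at least 4 libraries. Since classes were defined by expression, class differences were described by medians, ranges and ratios of summed counts, with exact 95% (Clopper-Pearson) intervals that cover counting error only, and a count of 0 was taken to allow 3 counts. Labelled comparisons used edgeR 4.0.16 (filterByExpr, TMM, robust quasi-likelihood F-test) in R 4.3.3, with DESeq2 1.42.0 and limma-voom 3.58.1 as alternatives and an adjusted p of 0.05 as threshold. Samples carry separate mouse numbers. Correlations used log2(CPM + 0.5) within classes, with permutations drawn in numpy 2.4.6, and the smallest p that 100000 permutations can give is 1e-05. The tests were tested on simulated data. Other alternatives were left-out libraries, a pseudocount of 0.1, TMM scaling, Spearman's rho and class limits of 5 and 500 CPM. Exon sequences and 50-base stretches are from GENCODE transcripts of GRCm38.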

Additional observations from a re-analysis of the deposited data

Results flagged for a closer look

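In 3 of the 18 labelled sets of 4 libraries that were examined for Ncr1 and Klra4, 1 library lay far from the other 3. If each set came from 1 population, chance would give about 0.9 such sets. Each labelled group mixed classes, and Ncr1 was higher in every library of the H2-Ea-ps class than in all others, so that figure is no baseline here. All 3 flagged values were those of Ncr1. MC38 anti-PD-1 16 had 2.84 CPM, and the others of its group had 0.261 to 0.390 CPM. PancO2 IgG 54 had 5.69 CPM, and the others had 0.393 to 0.928 CPM. PancO2 anti-CTLA4 62 had 6.15 CPM, and the others had 0.288 to 0.422 CPM. Each of these 3 libraries belonged to the H2-Ea-ps class and carried the label C57BL/6J.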

How the results depend on the processing

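All 97 alternatives of the labelled comparisons called 0 members, as reported, and the 30 recomputed ratios of class medians all kept their direction and moved by less than the spread between libraries. The count of members absent from a class was 2, and 0 when 0 counts in every library were required, since Klra4 and Klra6 had a few counts. With at most 10 counts it was 3, with Klra17 added. The 7 instances of a member with 2 classes wholly apart became 8 without PancO2 anti-PD-1 71 (Klrc3 added), 8 with TMM scaling (Klrb1f added), 9 without the filter (Klra8 added in both comparisons) and 7 with class limits of 5 and 500 CPM, which moved PancO2 IgG 49. Members that followed Ncr1 numbered 0 by r, 2 by Spearman's rho (Klrc1 in the H2-Ea-ps class and Klri2 in the Cp class) and 1 without the 2 libraries with the most extreme Ncr1 (Klrc1). For Siglech the count of 1 became 0 without the 2 extreme libraries, and was 1 by rho and without PancO2 anti-PD-1 71, with Klrk1 in place of Klri2. Relations with Cd8a numbered 11 to 14. Of 65 recomputed values of the 13 relations called, 8 no longer passed and none changed sign. Total counts limit what can be said of the 11 members below a median of 10 counts. No paired analysis was possible because each mouse number belongs to 1 library.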
